A study of Mus musculus with 6 samples.

Results

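The genes described here encode the nuclear subunits of the mitochondrial respiratory chain beyond complex I: succinate dehydrogenase (complex II), the cytochrome bc1 complex (complex III), cytochrome c, part of cytochrome c oxidase (complex IV), and ATP synthase (complex V). They were taken by symbol from the gene table: the Sdh genes a to d, every Uqcr gene, Cyc1, Cycs, the Cox5, Cox6b, Cox6c, Cox7b and Cox7c genes, and every Atp5 gene. That rule found 39 of 20295 genes: 4 of complex II, 9 of complex III, the cytochrome c gene, 8 of complex IV and 15 of ATP synthase, plus 2 (Atp5s and Atp5sl) that carry the name but are not subunits of the enzyme. RNA was sequenced from adipocytes grown in culture from 3 mouse fat depots, with 2 libraries for each depot. The depots were brown fat (BAT, pooled from the interscapular, cervical and axillary pads), epididymal white fat (eWAT) and inguinal white fat (iWAT) of male NMRI mice aged 4 to 5 weeks. Stromal-vascular cells, the non-adipocyte fraction left after collagenase digestion, were all given the same adipogenic medium (1 µM of the PPARγ agonist rosiglitazone, 30 nM insulin, 10% newborn calf serum). By the labels the cells were collected 8 days after plating, while the library names in the counts carry a day 7 tag. The cultures were therefore made from precursors and not from mature fat cells, every depot had received the agonist, and only cultures with more than 50% differentiated cells had been kept. The labels leave unsaid whether replicates are different animals or different dishes, so p-values measure the spread between these libraries, which may be technical.

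Complex II passes electrons from succinate to ubiquinone, and is at once an enzyme of the citrate cycle. Complex III passes them on to cytochrome c, and complex IV from cytochrome c to oxygen; complexes III and IV help build the proton gradient across the inner membrane. ATP synthase uses that gradient through its membrane rotor, a ring of c subunits, to make ATP in its F1 head. Brown adipocytes are packed with respiratory chain and burn the gradient as heat through UCP1, and brown fat is known for having little ATP synthase for its amount of respiratory chain, with the c subunit as the short component.

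The libraries held 2889038 to 4807449 counts each. Counts assigned to the 39 genes made up 2.24% and 2.91% of all counts in BAT replicates 1 and 2. The eWAT shares were 1.29% and 1.46%, and the iWAT shares 1.49% and 1.59%. The BAT share was thus the highest, and the BAT replicates differed from each other more than those of the white depots. Ucp1, the marker that checks the depot labels, had a mean ± SD (n = 2) of 7109 ± 3090 CPM (BAT), 61.2 ± 2.28 CPM (eWAT) and 1055 ± 84.5 CPM (iWAT). CPM is a gene's count relative to its library's total, here scaled by edgeR's trimmed-mean factors. Differences are log2 ratios ± SE from edgeR's quasi-likelihood test over 11732 genes in all 6 libraries, called at a Benjamini-Hochberg adjusted p below 0.05.

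In BAT cultures 17 of the 37 tested genes were higher than in eWAT cultures and 0 were lower, where 2.71% of all tested genes were called higher and 3.75% lower in BAT. The called genes came from every complex: 3 of 4 in complex II, 5 of 9 in complex III, cytochrome c, 4 of 7 in complex IV and 4 of 14 in ATP synthase. By unadjusted p, 32 of the 37 members and 25.9% of all tested genes were below 0.05. The median difference over the 37 genes was 0.95 on the log2 scale, against -0.03 over all tested genes. Both BAT libraries lay above both eWAT libraries for 32 of the 37 genes, where 26.8% of all tested genes did so, and below them for 2, where 28.5% did. Without replicate 2 of BAT, or without either eWAT library, no member was called; without iWAT replicate 1, or without iWAT replicate 2, only Uqcrb and Cycs were; without replicate 1 of BAT 21 were. The calls over all genes moved in the same way: 4 genes were higher in BAT without its replicate 2, 6 and 7 without eWAT replicate 1 or 2, 49 and 34 without iWAT replicate 1 or 2, and 415 without BAT replicate 1, against 318 with every library. Libraries with the same replicate number deviated together across depots, and a fit with the replicate number as a block called 29 members higher and 1 lower (Atp5g3), where it called 10.9% of all genes higher and 12.8% lower. DESeq2 called 25 higher and 1 lower, where it called 5.11% and 6.57% of all genes.

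Against iWAT cultures the members lay higher in BAT by a median of 0.73 on the log2 scale, with -0.02 over all genes, and no difference passed the test. In that comparison 0.145% of all genes were called higher in BAT and 0.895% lower. By edgeR's unadjusted p, 26 of the 37 members and 1951 of the 11732 genes were below 0.05, and DESeq2 called 13 members higher, where it called 1.53% of all genes higher and 2.82% lower. With the replicate block edgeR called 21 members higher and 0 lower, where it called 4.55% of all genes higher and 5.89% lower. The smallest adjusted p without the block was that of Uqcrb, 0.0536 in edgeR. Both BAT libraries lay above both iWAT libraries for 33 members, where 23.9% of all tested genes did so, and below them for 3, where 24.1% did.

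Between the white depots no member passed edgeR's test, and neither did any other gene (0.0% of all tested genes in either direction). There the members' median was 0.25 higher in iWAT, 4 members and 1096 genes had an unadjusted p below 0.05, and DESeq2 and the blocked fit called 0 members. Of all genes DESeq2 called 0.963% higher and 1.6% lower in iWAT, and the blocked fit 1.66% and 3.14%. Both iWAT libraries lay above both eWAT libraries for 25 of the 37 members, where 19.2% of all tested genes did so, and below them for 2, where 18.8% did.

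**Figure D1:**
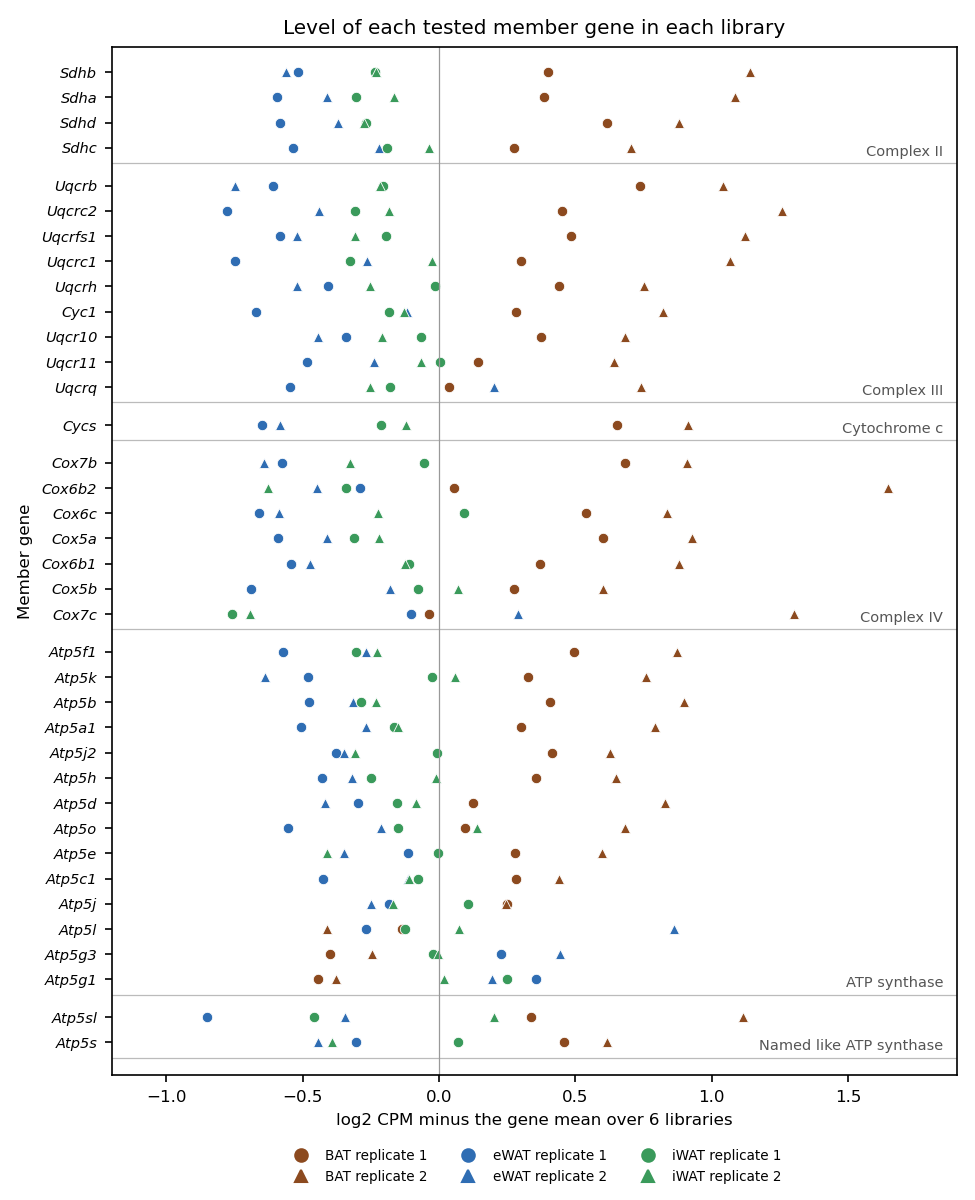
Level of each of the 37 tested genes in each library, as log2 CPM minus the gene's mean over the 6 libraries; colours are depots and symbols replicates. BAT libraries lie to the right for nearly every gene, BAT replicate 2 mostly further than replicate 1. Atp5g1, Atp5g3 and Atp5l, at the foot of the ATP synthase block, are lower in BAT than in eWAT on average. For Uqcrq and Cox7c the BAT and eWAT libraries overlap.

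The complexes did not stand at 1 distance from each other in the 3 depots. The mean log2 CPM of the complex II genes was 9.82 ± 0.38 (BAT), 8.66 ± 0.12 (eWAT) and 8.92 ± 0.05 (iWAT), each with its SD over n = 2 libraries. The complex III genes stood at 8.93 ± 0.38, 7.84 ± 0.16 and 8.12 ± 0.01 in that order of depots. The tested complex IV genes stood at 7.04 ± 0.46, 5.94 ± 0.10 and 6.10 ± 0.06 in the same order. For the tested ATP synthase genes the values were 7.86 ± 0.21, 7.33 ± 0.11 and 7.45 ± 0.01, the smallest step from BAT to a white depot of the 4 complexes. These means compare each complex with itself across depots, not one complex with another, because transcript lengths differ.

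The median BAT minus eWAT difference was 1.25 in complex II, 1.06 in complex III, 1.27 in complex IV and 0.83 in ATP synthase. For BAT minus iWAT the medians were 1.02, 0.73, 0.98 and 0.59 in the same order. For iWAT minus eWAT they were 0.26, 0.32, 0.39 and 0.18. ATP synthase had the lowest median in each comparison. Without the 3 c subunit genes its medians were 0.88, 0.63 and 0.20, still the lowest of the 4 in each. Complex IV is here only the part that the symbol rule took, and ATP synthase only genes with an Atp5 symbol. The 9 other tested complex IV genes had medians of 0.97, 0.60 and 0.26. Against iWAT their 0.60 was close to the 0.59 of ATP synthase and below its 0.63 without the c subunit genes.

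The balance can be read inside each library, where depth and scaling cancel. Complex II genes lay above ATP synthase genes by 1.84 and 2.08 on the log2 scale (BAT), 1.32 and 1.34 (eWAT), and 1.42 and 1.51 (iWAT). Complex III lay above ATP synthase by 0.94 and 1.19 (BAT), 0.47 and 0.55 (eWAT), and 0.67 and 0.67 (iWAT). Complex IV minus ATP synthase gave -1.0 and -0.64 (BAT), -1.39 and -1.39 (eWAT), and -1.32 and -1.39 (iWAT). In all 3 balances both BAT libraries were above all 4 white libraries, by 0.56 to 0.63 against the eWAT mean. These balances are of means, and the ATP synthase mean includes Atp5g1, Atp5g3 and Atp5l, whose BAT minus eWAT differences were below 0. The complex IV mean includes the low genes Cox6b2 (4.44 and 13.4 CPM in BAT) and Cox7c (3.17 and 8.03 CPM in BAT). Both were well higher in BAT replicate 2 than in BAT replicate 1. The median differences of the complexes lay closer to that of ATP synthase: 0.42 for complex II, 0.23 for complex III and 0.44 for complex IV. Without the c subunit genes the balances changed by 0.43, 0.36 and 0.37, and without members of mostly shared sequence by 0.45, 0.32 and 0.49, with both BAT libraries above all 4 white ones in each. Complex II minus complex III differed less, at 0.90 and 0.89 (BAT), 0.85 and 0.79 (eWAT), and 0.75 and 0.84 (iWAT). Here too both BAT libraries were above all 4 white ones. By medians, complex II exceeded complex III by 0.19 for BAT minus eWAT and by 0.28 for BAT minus iWAT. Complex III exceeded ATP synthase by 0.23 and 0.15 in the same comparisons. For complex II and complex III against complex IV, the BAT libraries overlapped the eWAT libraries. These values over the members are descriptions with no test.

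**Figure D2:**
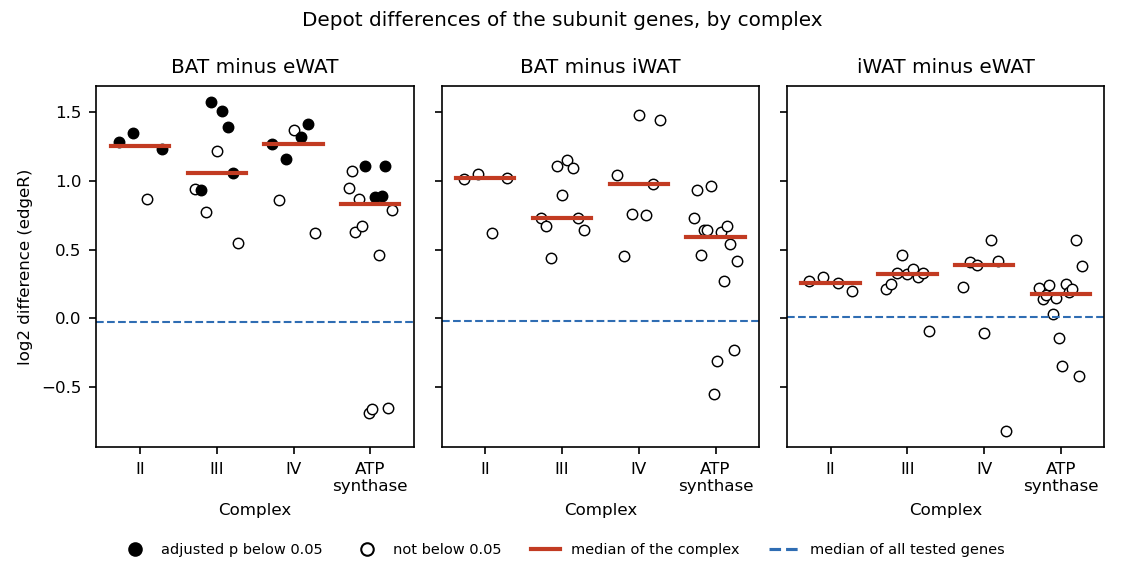
Log2 difference between depots of each tested subunit gene, by complex; filled points passed edgeR's test, red bars are medians and the dashed line is the median of all tested genes. The medians for BAT minus eWAT are 1.25, 1.06, 1.27 and 0.83, no point is filled in the other 2 panels, and 3 ATP synthase genes lie below 0 in both panels that start with BAT.

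**Figure D3:**
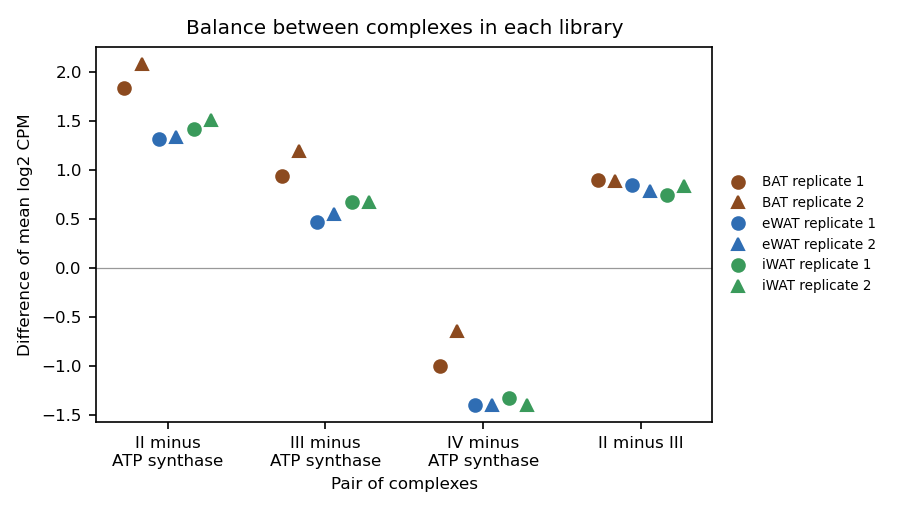
Difference between the mean log2 CPM of 2 complexes within each library, by depot (colour) and replicate (symbol). The BAT libraries lie above the white ones in the 3 pairs with ATP synthase, and above but near them for complex II minus complex III.

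Succinate dehydrogenase consists of 4 subunits, all encoded in the nucleus, and 3 of the 4 genes were higher in BAT than in eWAT. Sdha (mm9 chr13:74459702-74487688), the flavoprotein that oxidises succinate, was at 1237 and 2008 CPM (BAT), 626 and 712 CPM (eWAT), and 766 and 845 CPM (iWAT). Sdhb (chr4:140517185-140535107), the iron-sulfur subunit, was at 529.8 and 886 CPM (BAT), 281 and 272 CPM (eWAT), and 341 and 342 CPM (iWAT). For both genes each BAT library was above every white library, and BAT replicate 2 was well above replicate 1. Sdha was higher in BAT than in eWAT by 1.28 ± 0.28 (edgeR adjusted p = 0.0499) and Sdhb by 1.35 ± 0.27 (edgeR adjusted p = 0.0413).

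Sdhc and Sdhd anchor the enzyme in the membrane and bind ubiquinone. Sdhd (chr9:50404444-50411954) was at 1056 and 1268 CPM (BAT), 459 and 533 CPM (eWAT), and 572 and 569.7 CPM (iWAT). Its BAT libraries were closer to each other than those of Sdha, and its BAT minus eWAT difference was 1.23 ± 0.20 (edgeR adjusted p = 0.0309). Sdhc (chr1:173059287-173080734) was at 460.3 and 619 CPM (BAT), 262 and 327 CPM (eWAT), and 332.9 and 370.3 CPM (iWAT). The depots did not overlap for Sdhc either, but its difference of 0.87 ± 0.22 missed the threshold (edgeR adjusted p = 0.0701; 0.00633 with the replicate block). Against iWAT none of the 4 passed edgeR's test; with the replicate block all 4 did, with adjusted p from 0.0109 (Sdhd) to 0.0420 (Sdhc), and DESeq2 called 3.

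The starts of 3 of these genes show letters that known regulators of the respiratory chain bind. NRF1, the ERR receptors and the ETS factor GABP are textbook regulators of respiratory chain genes. RefSeq's promoter windows on GRCm38.p6, from 250 bases before to 50 after each start, held 32 of the 39 genes in 36 windows. Sdhc, the remaining complex II gene, had no window and was not searched. The NRF1 letters, GCGC and TGCGC with any 1 base between them, were in 9 member windows (9 genes) and in 4.60% of all 32851 windows, searched on both strands. The ERR letters TCAAGGTCA were in 2 member windows (Sdhd and Atp5g3) and 0.423% of all windows, and the ETS letters ACCGGAAG in 3 (Sdhb, Sdhd and Atp5e) and 2.30%. CCAAT, a common promoter box, was in 20 member windows and 37.4% of all. The letters AAGATGGCG of YY1 were in 4 and in 1.40%. The stretches from 120 bases before to 30 after the start are shown for 3 complex II genes, with NRF1 and ETS matches in capitals; they are given 5′ to 3′ on the gene's strand. The ERR match of Sdhd lies beyond its stretch, and CCAAT boxes are left in lower case.
Sdha, GRCm38 chr13:74350211-74350360, minus strand: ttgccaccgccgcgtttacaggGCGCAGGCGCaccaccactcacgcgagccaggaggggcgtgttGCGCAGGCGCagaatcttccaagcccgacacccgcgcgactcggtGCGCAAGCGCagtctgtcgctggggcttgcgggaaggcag
Sdhd, GRCm38 chr9:50603820-50603969, minus strand: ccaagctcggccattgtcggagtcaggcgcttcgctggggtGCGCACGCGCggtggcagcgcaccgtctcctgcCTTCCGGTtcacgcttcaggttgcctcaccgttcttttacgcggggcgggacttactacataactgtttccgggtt
Sdhb, GRCm38 chr4:140961151-140961300, plus strand: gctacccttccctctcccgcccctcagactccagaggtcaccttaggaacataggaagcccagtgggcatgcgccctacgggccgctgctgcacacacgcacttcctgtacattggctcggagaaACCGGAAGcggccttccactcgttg
The Sdha stretch holds 3 NRF1 matches, the Sdhd stretch 1 NRF1 and 1 ETS match, and the Sdhb stretch 1 ETS match. A match is a description of the letters, and no binding was measured here.

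Complex III had 5 of its 9 genes higher in BAT than in eWAT, 1 of them a redox subunit, 1 a core protein and 3 small subunits. Uqcrfs1 (chr13:30632180-30637185), the Rieske iron-sulfur protein, was at 984 and 1531 CPM (BAT), 469 and 489.8 CPM (eWAT), and 615 and 568 CPM (iWAT). Both BAT libraries exceeded all white ones, and the BAT minus eWAT difference was 1.39 ± 0.26 (edgeR adjusted p = 0.0368). Cyc1, the cytochrome c1 haem protein, differed by 0.94 ± 0.27 (edgeR adjusted p = 0.0912; 0.00864 with the replicate block). Of the core proteins, Uqcrc2 was higher by 1.51 ± 0.31 (edgeR adjusted p = 0.0446), and Uqcrc1 differed by 1.22 ± 0.32 (edgeR adjusted p = 0.0749; 0.00360 with the block). Uqcrc2 overlaps Pdzd9 on the other strand by 228 bases, and whether counting used strand is not given in the sources used here.

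Among the small subunits, Uqcrb, a ubiquinone-binding protein (chr13:67001556-67006286), had the smallest adjusted p of all 39 genes. It was at 203 and 251 CPM (BAT), 79.9 and 72.5 CPM (eWAT), and 106 and 105 CPM (iWAT). The 3 depots were apart, in the order BAT, iWAT, eWAT, and BAT minus eWAT was 1.57 ± 0.18 (edgeR adjusted p = 0.0164), a 2.98-fold level. Leaving out 1 library moved that difference between 1.41 and 1.73, and the difference from iWAT was 1.11 ± 0.18 (edgeR adjusted p = 0.0536; 0.00801 with the block). Uqcrb shares 58.2% of its transcript windows with other annotated genes, as described with the levels below.

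Uqcrh (chr4:115739569-115747675), the hinge protein between cytochrome c1 and cytochrome c, was at 518 and 644 CPM (BAT), 288 and 267 CPM (eWAT), and 379 and 321 CPM (iWAT). Its depots did not overlap, and BAT minus eWAT was 1.06 ± 0.20 (edgeR adjusted p = 0.0372). Uqcr10 was higher in BAT by 0.93 ± 0.19 (edgeR adjusted p = 0.0421), and Uqcr11 differed by 0.77 ± 0.22 (edgeR adjusted p = 0.0875; 0.0172 with the block). Uqcrq (chr11:53242449-53244333), another small subunit, was at 122 and 198 CPM (BAT), 81.3 and 137 CPM (eWAT), and 105 and 99.6 CPM (iWAT). One eWAT library of Uqcrq lay above 1 BAT library, and its difference of 0.55 ± 0.32 was the smallest in the complex (edgeR adjusted p = 0.340). Against iWAT no complex III gene passed edgeR's test, and with the block 7 of 9 did; DESeq2 called 4.

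Cycs (chr6:50512561-50516473), the somatic cytochrome c that shuttles electrons between complexes III and IV, was at 88.5 and 106 CPM (BAT), 35.9 and 37.5 CPM (eWAT), and 48.6 and 51.8 CPM (iWAT). The 2 libraries of each depot were close and the 3 depots were apart. BAT minus eWAT was 1.40 ± 0.17 (edgeR adjusted p = 0.0203), between 1.27 and 1.54 when 1 library was left out. The difference from iWAT was 0.95 ± 0.17 (edgeR adjusted p = 0.0779; 0.0104 with the block).

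Complex IV had 4 of its 7 tested genes higher in BAT than in eWAT, all of them general isoforms. Cox7b (chrX:103211038-103217789), a small membrane subunit, was at 576 and 673 CPM (BAT), 241 and 230.1 CPM (eWAT), and 345 and 286 CPM (iWAT). Cox5a (chr9:57369038-57380233), which faces the matrix, was at 352 and 442 CPM (BAT), 154 and 175 CPM (eWAT), and 187 and 199 CPM (iWAT). Cox6c (chr15:35861730-35868001) was at 484 and 594 CPM (BAT), 210.4 and 221 CPM (eWAT), and 354 and 285 CPM (iWAT). For these 3 genes each depot was apart from the others, with iWAT in the middle. BAT minus eWAT was 1.41 ± 0.19 for Cox7b (edgeR adjusted p = 0.0226), 1.27 ± 0.19 for Cox5a (edgeR adjusted p = 0.0265) and 1.32 ± 0.20 for Cox6c (edgeR adjusted p = 0.0284). Cox5b, the zinc-binding matrix subunit, differed by 0.86 ± 0.23 (edgeR adjusted p = 0.0773; 0.00636 with the block).

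Subunits 6b and 7b exist in a general and a testis form. Cox6b1 (chr7:31401992-31411170), the general form of the subunit that faces the intermembrane space, was at 724 and 1029 CPM (BAT), 383 and 403 CPM (eWAT), and 519 and 513 CPM (iWAT). Its BAT minus eWAT difference was 1.16 ± 0.22 (edgeR adjusted p = 0.0394). Cox6b2 (chr7:4703393-4704696), the testis form, was at 4.44 and 13.4 CPM (BAT), 3.49 and 3.13 CPM (eWAT), and 3.37 and 2.77 CPM (iWAT). A single library, BAT replicate 2, carried the Cox6b2 difference of 1.37 ± 0.59 (edgeR adjusted p = 0.211), which was 0.41 without that library. Cox7b2, the testis form of Cox7b, had 1 count in the BAT libraries and 0 in both white depots and was not tested; the limit that a count of 0 allows, 3 counts, was 0.634 to 1.15 CPM per library.

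Cox7c (chr13:86184402-86186400) was at 3.17 and 8.03 CPM (BAT), 3.03 and 3.98 CPM (eWAT), and 1.92 and 2.01 CPM (iWAT). BAT and eWAT overlapped, and BAT minus eWAT was 0.62 ± 0.55 (edgeR adjusted p = 0.532) and -0.14 without BAT replicate 2. Its level stands apart from the other general subunits, as described with the levels below. Against iWAT no complex IV gene passed edgeR's test, and with the block 4 of 7 did; DESeq2 called 3.

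Within ATP synthase the parts differed in how many genes edgeR called, though the medians of the F1 head and the peripheral stalk were close (0.87 and 0.84). In the F1 head, which holds the catalytic sites, none of the 5 genes passed edgeR's test for BAT minus eWAT, though both BAT libraries lay above both eWAT libraries for all 5. Their median difference was 0.87, with Atp5b, the catalytic beta subunit, at 1.07 ± 0.27 (edgeR adjusted p = 0.0694) and Atp5a1, the alpha subunit, at 0.95 ± 0.26 (edgeR adjusted p = 0.0859). The gamma, delta and epsilon genes Atp5c1, Atp5d and Atp5e differed by 0.63, 0.87 and 0.67 (edgeR adjusted p = 0.104, 0.0921 and 0.120). All 5 had an unadjusted p below 0.05, all 5 were called with the replicate block, and DESeq2 called 4.

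The peripheral stalk holds the head still while the rotor turns, and 2 of its 4 genes were higher in BAT than in eWAT (3 with the block). Atp5f1 (chr3:105745780-105763166), the b subunit, was at 593 and 771 CPM (BAT), 283 and 349.8 CPM (eWAT), and 341 and 359 CPM (iWAT). The BAT libraries were above the others, the white depots overlapped, and BAT minus eWAT was 1.11 ± 0.22 (edgeR adjusted p = 0.0399). Atp5h, the d subunit, was higher by 0.88 ± 0.19 (edgeR adjusted p = 0.0467). Atp5o, the oligomycin sensitivity protein, differed by 0.79 ± 0.26 (edgeR adjusted p = 0.122; 0.00961 with the block), and Atp5j, coupling factor 6, by 0.46 ± 0.17 (edgeR adjusted p = 0.151). Atp5f1 and Atp5j overlap genes on the other strand, Wdr77 by 751 bases and Gabpa by 451 bases.

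The membrane part, Fo, held genes with differences of both signs. Atp5k (chr5:108862271-108863397), the e subunit that helps the enzyme form dimers, was at 179 and 241 CPM (BAT), 102 and 91.6 CPM (eWAT), and 140.0 and 148 CPM (iWAT). The 3 depots were apart, and BAT minus eWAT was 1.11 ± 0.20 (edgeR adjusted p = 0.0357). Atp5j2 (chr5:145944574-145952461), the f subunit, was at 267 and 310.5 CPM (BAT), 155 and 158 CPM (eWAT), and 199.9 and 162 CPM (iWAT). It too had no overlap between depots, and it was higher in BAT than in eWAT by 0.89 ± 0.18 (edgeR adjusted p = 0.0450). Atp5l, the g subunit, was at 7.40 and 6.12 CPM (BAT), 6.76 and 14.8 CPM (eWAT), and 7.46 and 8.55 CPM (iWAT). A single eWAT library set the Atp5l difference of -0.65 ± 0.44 (edgeR adjusted p = 0.414), which was 0.02 without eWAT replicate 2.

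The genes Atp5g1, Atp5g2 and Atp5g3 encode the same mature c subunit of the rotor ring, with different import sequences. Atp5g3 (chr2:73746503-73749383) took 97.5% to 98.2% of the counts of the 3 genes in every library. It was at 195 and 218 CPM (BAT), 302 and 351 CPM (eWAT), and 254.5 and 258 CPM (iWAT). The depots were apart in the order eWAT, iWAT, BAT, which is the reverse of the order of the called genes such as Uqcrb, Cycs and Cox7b. BAT minus eWAT was -0.66 ± 0.17 (edgeR adjusted p = 0.0714), between -0.76 and -0.55 when 1 library was left out. The Atp5g3 difference passed the threshold with the replicate block (edgeR adjusted p = 0.0138), in DESeq2 (adjusted p = 0.0285) and with scaling by library totals alone (-0.81, edgeR adjusted p = 0.0418), and in no other alternative run. Against iWAT the difference was -0.31 ± 0.17 (edgeR adjusted p = 0.415).

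The other 2 c subunit genes were low. Atp5g1 (chr11:95934106-95937008) was at 4.02 and 4.21 CPM (BAT), 6.99 and 6.26 CPM (eWAT), and 6.49 and 5.53 CPM (iWAT). Both BAT libraries lay below all 4 white libraries, and the difference from eWAT was -0.69 ± 0.35 (edgeR adjusted p = 0.279). Atp5g2 (chr15:102493298-102501478) had 1 count in BAT, 3 in eWAT and 0 in iWAT, under the limit for a comparison.

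The c subunit gene and the catalytic subunit gene can be set against each other within each library, per kilobase of counted transcript. Atp5b was taken for this after its values had been seen, as the most abundant ATP synthase gene. It also had the largest BAT minus eWAT difference of the 5 F1 genes, 1.07, where their median was 0.87. Atp5b stood at 3089 and 4339 CPM per kb (BAT), 1675 and 1871 (eWAT), and 1911 and 1985 (iWAT). The median of the F1 genes rose less in BAT, at 499 and 572 CPM per kb (BAT), 349 and 379 (eWAT), and 389 and 380 (iWAT). Atp5g3 stood at 291 and 324 CPM per kb (BAT), 451 and 523 (eWAT), and 379 and 384 (iWAT). Atp5g3 per Atp5b was 0.0943 and 0.0747 (BAT), 0.269 and 0.280 (eWAT), and 0.198 and 0.193 (iWAT). So the BAT cultures held the least Atp5g3 mRNA for their Atp5b mRNA, and the 3 depots did not overlap. This order follows from the levels of both genes, whose depots were apart in opposite orders. Atp5g1 and Atp5g2 share 57.6% and 48.1% of their transcript windows with other genes, so their part in the c subunit mRNA is uncertain. This ratio is a description with no test.
The start of Atp5g3 carries 1 ERR match and 1 NRF1 match (capitals), and no binding was measured.
Atp5g3, GRCm38 chr2:73911297-73911446, minus strand: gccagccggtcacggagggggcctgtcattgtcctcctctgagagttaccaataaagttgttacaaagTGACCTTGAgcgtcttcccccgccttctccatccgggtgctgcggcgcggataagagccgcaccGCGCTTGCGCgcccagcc

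**Figure D4:**
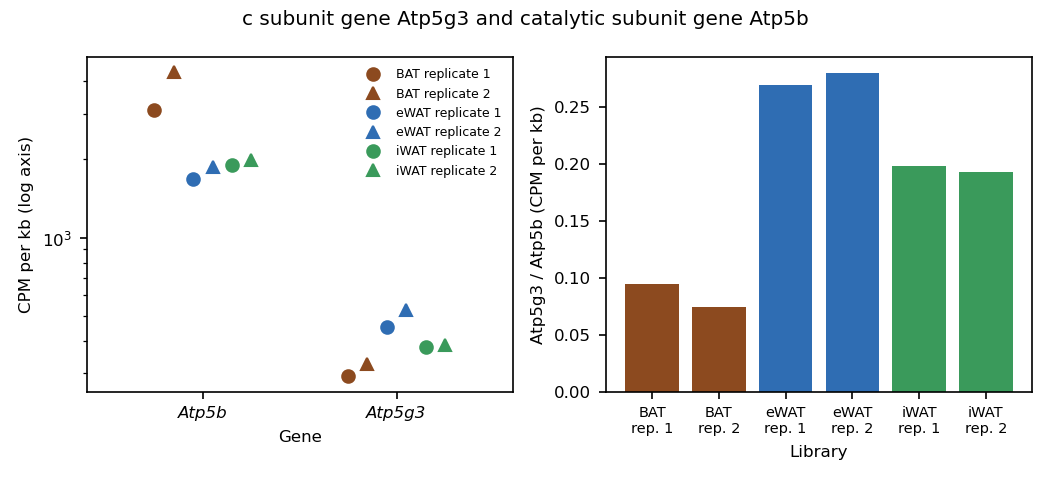
Left, CPM per kb (log axis) of Atp5b and Atp5g3 in each library; right, their ratio per library, with bars from 0 coloured by depot. Atp5b is highest in BAT and Atp5g3 lowest, and the ratio runs from 0.0747 and 0.0943 in BAT to 0.269 and 0.280 in eWAT.

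Against iWAT no ATP synthase gene passed edgeR's test. With the block 4 of the 14 did, and DESeq2 called 2. Atp5s and Atp5sl, which are named like ATP synthase, were low and not called. Atp5sl, an assembly factor of complex I, was at 19.7 and 33.6 CPM (BAT), 8.62 and 12.2 CPM (eWAT), and 11.3 and 17.8 CPM (iWAT). BAT lay above both white depots, and BAT minus eWAT was 1.34 ± 0.40 (edgeR adjusted p = 0.0962; 0.00674 with the block). Atp5s was at 15.4 and 17.2 CPM (BAT), 9.09 and 8.25 CPM (eWAT), and 11.8 and 8.55 CPM (iWAT), a BAT minus eWAT difference of 0.90 ± 0.29 (edgeR adjusted p = 0.118).

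Subunits sit in an enzyme in fixed proportions, but the mRNA levels per length of their genes were far apart. Averaged over the 6 libraries, the highest in each complex were Sdhd at 578 CPM per kb, Uqcrh at 737, Cox6b1 at 1178 and Atp5b at 2478. Of the 39 genes, 9 were below 100 CPM per kb. Of these, Cox6b2 and Cox7b2 are testis forms, Atp5s and Atp5sl are not subunits, and Atp5g1 and Atp5g2 have Atp5g3 beside them. The other 3 are general genes of the chain: Cycs at 20.1 CPM per kb, Atp5l at 16.6 and Cox7c at 8.22. Cycs is counted over 3059 bases, the longest of the 39.

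Several of these genes have processed pseudogenes, copies of their mRNA elsewhere in the genome. The share of a gene's 31-base windows that also occur in the annotated transcripts of another gene (GENCODE M21) was 85.4% for Atp5l, 60.8% for Atp5h, 58.2% for Uqcrb, 57.6% for Atp5g1 and 50.6% for Cox7c. These 5 are 13.5% of the 37 tested members, where 4.06% of 11678 tested genes share over 50% of their windows. Atp5l shares with 11 other genes, 9 of them annotated as pseudogenes. Atp5g3 shares 0.0%. How reads that fit several places were counted is not given in the sources used here, so levels of genes such as Atp5l, Atp5g1 and Cox7c are uncertain. Without the 5 genes 15 of 32 members were called higher in BAT than in eWAT, with a median of 1.07.

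**Figure D5:**
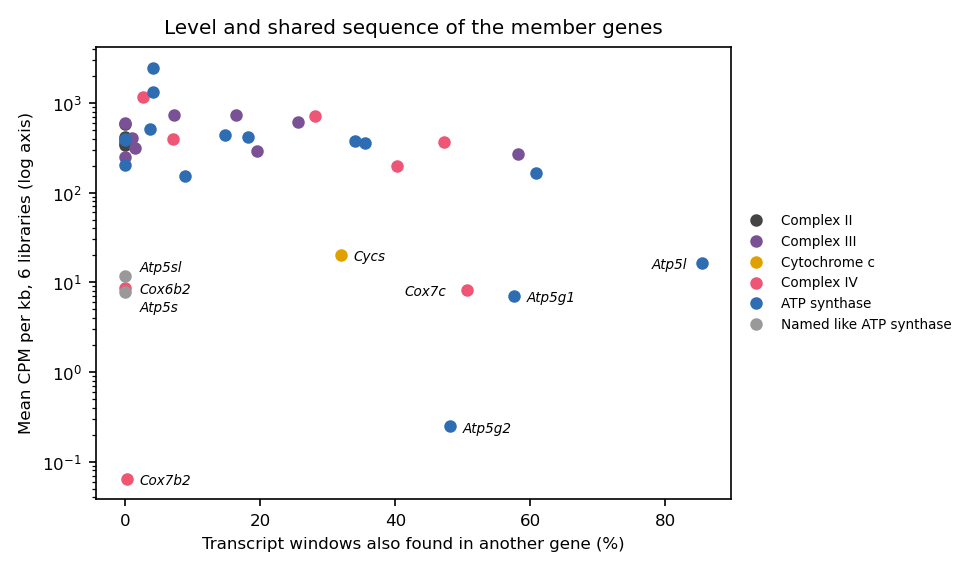
Mean CPM per kb over the 6 libraries (log axis) against the share of a gene's transcript windows found in another gene, for all 39 genes; genes below 100 CPM per kb are named. Atp5l, Atp5g1, Cox7c and Atp5g2 combine a low level with a share of 48.1% to 85.4%, while Uqcrb and Atp5h share 58.2% and 60.8% and are above 100.

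Other genes of the pathway were taken from lists of symbols. Complex I feeds electrons from NADH into the chain, and 15 of its 37 tested genes were higher in BAT than in eWAT and 0 lower, with a median of 1.01 (36 higher with the replicate block). Complex IV subunits outside the symbol rule had 3 of 9 higher (6 with the block): Cox7a1, an isoform of heart, muscle and brown fat, by 2.84 ± 0.29 (edgeR adjusted p = 0.0149), Cox8b by 1.75 ± 0.34 (edgeR adjusted p = 0.0406) and Cox7a2 by 1.26 ± 0.24 (edgeR adjusted p = 0.0372). Citrate cycle genes had 7 of 13 higher (11 with the block), led by the succinyl-CoA ligase gene Sucla2 at 2.16 ± 0.24 (edgeR adjusted p = 0.0158), with a list median of 1.31. Sucla2 was also higher in BAT than in iWAT (edgeR adjusted p = 0.0344), the 1 gene of these pathway lists called there without the block. With the replicate block edgeR called 10 citrate cycle genes higher in BAT than in iWAT, 21 complex I genes higher and 1 lower, and 4 of the other complex IV genes higher. DESeq2 called 10, 11 and 2 higher. The ATP synthase accessory, assembly, carrier and regulator lists named next had 3, 1, 0 and 4 genes higher against iWAT with the block.

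Of 6 genes without an Atp5 symbol that build, accompany or inhibit ATP synthase, 2 were higher in BAT than in eWAT (4 with the block). The list median was 1.18, against 0.83 for the tested Atp5 genes of the enzyme. Atpaf2, which chaperones the F1 head, was higher by 1.45 ± 0.18 (edgeR adjusted p = 0.0203), and 2010107E04Rik by 1.21 ± 0.22 (edgeR adjusted p = 0.0364). Atpif1, which inhibits the reverse reaction of the enzyme, was at 39.0 ± 3.75 CPM (BAT), 56.2 ± 8.75 CPM (eWAT) and 60.0 ± 3.61 CPM (iWAT; SD, n = 2), a difference from eWAT of -0.53 (edgeR adjusted p = 0.152). Of 12 assembly factors of complexes II, III and IV, 2 were higher (6 with the block), the complex III factor Lyrm7 by 1.95 and the copper chaperone Cox17 by 1.51 (edgeR adjusted p = 0.0379 and 0.0417). The carriers that bring ADP and phosphate to the enzyme had 0 of 3 called by edgeR, with a median of 0.71; 2 had an unadjusted p below 0.05, and DESeq2 and the blocked fit each called 2.

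Of 8 regulators of mitochondrial biogenesis, 1 was higher in BAT than in eWAT (4 with the block): Gabpa, the DNA-binding part of GABP, by 1.45 ± 0.25 (edgeR adjusted p = 0.0320). Gabpa overlaps the member Atp5j on the other strand by 451 bases, and whether counting used strand is not given. Ppargc1a, the coactivator PGC-1α, differed by 1.57 ± 0.64 (edgeR adjusted p = 0.188) and Esrra, the receptor ERRα, by 0.99 ± 0.32 (edgeR adjusted p = 0.118). Of 79 cytosolic ribosomal protein genes, also short and often with pseudogenes, 58 passed the filter on low counts and were tested. Of these 58, 2 were higher in BAT than in eWAT (Rpl39l and Rps27l), 0 were lower, and the median was -0.22.

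Markers of other cells also differed between the cultures. The summed level of 8 adipocyte markers was 39727 to 52225 CPM (BAT), 30366 to 35569 CPM (eWAT) and 32870 to 34491 CPM (iWAT), of which Fabp4, a fatty acid carrier, was 25312 and 32204 CPM (BAT), 15887 and 16604 CPM (eWAT), and 18993 and 16955 CPM (iWAT). Without Fabp4 the sums were 14415 and 20021 CPM (BAT), 14478 and 18966 CPM (eWAT), and 15497 and 15915 CPM (iWAT), which overlap. The 8 markers had a median BAT minus eWAT difference of -0.08, with 0 of 8 called by edgeR (3 with an unadjusted p below 0.05, 2 higher and 1 lower by DESeq2, 1 higher and 1 lower by the blocked fit). All 6 brown markers were higher in BAT than in eWAT. Of 9 macrophage markers, edgeR called 6 lower in BAT cultures than in eWAT cultures (9 with the block), and the list had summed levels of 94.8 to 429.8 CPM (BAT), 2081 to 4692 CPM (eWAT) and 186 to 639 CPM (iWAT), none at 0 in both libraries of a depot. Of 8 fibroblast and preadipocyte markers, edgeR called 6 lower in BAT than in either white depot (7 with the block), with summed levels of 2798 to 3765 CPM (BAT), 16944 to 18578 CPM (eWAT) and 19252 to 20616 CPM (iWAT). The 11 skeletal muscle markers summed to 19.5 to 27.5 CPM (BAT), 11.7 to 20.7 CPM (eWAT) and 11.5 to 13.6 CPM (iWAT), with Myod1 at 0 in BAT and Ckm, Mb and Myog at 0 in eWAT. Of 4 tested muscle markers edgeR called Actn3 lower in BAT than in eWAT and none higher; the block and DESeq2 each called 2 higher and 1 lower. Mb and Myh1 are given here after their values were seen. Mb, the muscle oxygen store, was at 5.28 and 7.65 CPM (BAT), 0 and 0 (eWAT) and 0 and 1.76 (iWAT), and Myh1, a muscle myosin, at 4.44 and 4.21 CPM (BAT), 0.233 and 0 (eWAT) and 0.241 and 1.51 (iWAT). Of the endothelial markers 0 of 5 were called by edgeR (1 with an unadjusted p below 0.05, 0 by DESeq2), with summed levels of 87.2 to 182 CPM (BAT), 49.6 to 106 CPM (eWAT) and 149 to 164 CPM (iWAT). Of 2 tested Schwann cell markers 1, S100b, was higher in BAT than in eWAT, and the list summed to 24.3 to 46.3 CPM (BAT), 2.33 to 3.41 CPM (eWAT) and 8.90 to 15.3 CPM (iWAT), with Sox10 at 0 in BAT. The part of these cells in the subunit differences was not tested, and fewer cells of a type cannot be told apart from less RNA per cell in these bulk libraries.

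At an adjusted p below 0.05, the authors' deposited table of their own comparisons had 31 of the 39 genes higher in BAT than in eWAT. It had 1 gene, Atp5g3, lower. Of all 20295 genes, not only the 11732 tested here, 6.58% were higher and 9.05% lower. For Atp5g3 the authors' deposited table lists a log2 difference of -0.66 with an adjusted p of 0.0151. For BAT against iWAT the authors' deposited table gave 19 members as higher and 0 as lower, with 2.91% of all genes higher and 5.33% lower. For iWAT against eWAT the authors' deposited table gave 2 members as higher, Cox6c and Atp5k, with 3.25% of all genes higher and 5.27% lower.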

How the data were processed

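RNA depleted of ribosomal RNA was sequenced from 6 cultures, 2 for each of 3 depots, and aligned with STAR to mm9 per the submitters' processing notes; for the counting step, software versions, strand and multiply mapped reads, the sources used here give nothing. The authors deposited raw read counts per gene with the counted length. They also deposited their own comparisons, with log2 fold changes, likelihood ratio scores and adjusted p-values, per the file headers. Libraries held 2889038 to 4807449 counts, so the limit that a count of 0 allows (3 counts, counting error only) was 0.634 to 1.15 CPM. Replicates differed beyond counting noise (chi-square per degree of freedom 17.0 to 21.3).

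Counts were tested with edgeR 4.0.16 in R 4.3.3: genes kept by filterByExpr (11732 of 20295), TMM scaling, depot as the only term, the quasi-likelihood F test, and Benjamini-Hochberg adjustment over all kept genes with a threshold of 0.05. The SE is the log2 difference divided by the square root of F. The fit had 3 residual degrees of freedom and a common dispersion equal to a coefficient of variation of 0.251. The steps were tested on simulated data. CPM per kb divides CPM by the counted length. Alternatives were no filter, a stricter filter (10 CPM in 2 libraries), DESeq2 1.42.0, limma 3.58.1 voom, the likelihood ratio test, other scalings, fits of 2 depots, a replicate block, each library left out, and, chosen after seeing the data, leaving out members that share over 50% of their 31-base windows with another gene, the c subunit genes from the balances, and Fabp4 from the adipocyte sum.

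The labels number the replicates without saying what a number shares. The difference between replicates 1 and 2 correlated across genes between every pair of depots (r = 0.390, 0.427 and 0.528), so the numbers were taken to pair the libraries, from the data alone, and blocked counts or p-values are printed beside members and lists where they differ in call.

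The members and all lists (pathway genes and markers of brown fat, adipocytes, macrophages, fibroblasts, muscle, endothelium and Schwann cells) were chosen with earlier results of these data known. Values in every library are given for the 3 called genes with the smallest adjusted p in each complex, the genes with its largest and smallest difference, and isoform sets; Atp5b, Atp5l and the values of other members were added after they were seen.

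Shared windows were computed on both strands against GENCODE M21 transcripts (GRCm38), using each gene's transcript nearest its counted length and treating entries of 1 gene name as 1 gene. Gene positions are from the deposited table (mm9). Promoter sequences are RefSeq's for GRCm38.p6; 7 members had none there.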

Additional observations from a re-analysis of the deposited data

How the results depend on the processing

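For BAT minus eWAT the number of members called higher, 17 as reported, was 27 with no filter on low counts, 26 with edgeR's likelihood ratio test, 2 in a fit of these depots alone, 29 with the replicate block, and 0 to 21 with 1 library left out: 0 without BAT replicate 2, eWAT replicate 1 or eWAT replicate 2, and 2 without either iWAT library. Over all genes the number called higher moved too, from 318 to 769 of 17699 with no filter, 743 with the likelihood ratio test, 40 in the fit of these depots alone and 1276 with the block. The member count stayed within 1.5 times the reported one with the stricter filter (17), DESeq2 (25), limma voom (15) and DESeq2-type size factors (16). So it did with library totals (14) and without members of shared sequence (15). Over all genes 296 of 9491 were called higher with the stricter filter, 599 with DESeq2, 242 with limma voom and 316 with those size factors. The number of members called lower, 0 as reported, was 1 with DESeq2, library totals or the replicate block, each time Atp5g3. Library totals moved the median of all genes by -0.15 and the split of all calls from 318 higher and 440 lower to 251 and 575. For BAT minus iWAT the number of members called higher, 0 as reported, was 10 with no filter and 1 (Uqcrb) with the stricter filter. It was 13 with DESeq2, 11 with the likelihood ratio test and 21 with the replicate block. Of all genes, 17 were called higher as reported, 249 of 17699 with no filter and 17 of 9491 with the stricter filter. The all-gene counts were 179 with DESeq2, 228 with the likelihood ratio test and 534 with the replicate block. The causes of these shifts were not tested. With 1 library left out, a depot's lone library is assumed to vary like the others, and the medians for BAT minus eWAT ran from 0.91 to 1.48 in complex II, 0.78 to 1.25 in complex III, 0.88 to 1.43 in complex IV and 0.52 to 1.01 in ATP synthase. For BAT minus iWAT they ran from 0.63 to 1.24, 0.52 to 0.98, 0.61 to 1.10 and 0.35 to 0.76, and for iWAT minus eWAT from 0.14 to 0.34, 0.21 to 0.40, 0.18 to 0.39 and 0.13 to 0.24. Single genes changed sign in 2 values for BAT minus eWAT: Cox7c, which ran from -0.14 (without BAT replicate 2) to 1.20 with 1 library left out, and Atp5l, from -1.11 to 0.02 (without eWAT replicate 2). For iWAT minus eWAT 8 values did: Cyc1 ran from -0.04 (without eWAT replicate 1) to 0.52, Uqcrq from -0.42 to 0.33 and Atp5l from -0.88 to 0.25 (both without eWAT replicate 2), Cox6b2 from -0.27 to 0.02 (without iWAT replicate 2), Atp5s from -0.03 (without iWAT replicate 1) to 0.44, and Atp5e from -0.20 (without iWAT replicate 1; -0.08 without eWAT replicate 2) to 0.23, with -0.03 under library totals. None did for BAT minus iWAT. Depth limits Cox7b2 and Atp5g2, with 1 and 4 counts in all.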
